A study of Mus musculus with 6 samples.

Results

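The presynaptic vesicle and release machinery is the set of proteins that fill synaptic vesicles with transmitter, dock and prime them at the active zone, fuse them with the plasma membrane when calcium enters the nerve ending, and retrieve them afterwards. A named list of 44 genes stands for it here, out of 22527 genes on the array, and all 44 were found. They were read from every probe set whose gene symbol entry named a member, which gave 118 of 45077 probe sets. Probe sets are bundles of short array probes that together read a transcript; 34 of the 44 genes had several and 10 had 1. The value of a gene is that of its brightest probe set, the one with the highest mean over the groups, unless another is named. Members are found by name, and no measured value enters the rule. The list itself was drawn up with earlier results of these data known.

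RNA of the cerebral cortex came from 6 male mice labelled as 16 weeks old, split evenly over 3 groups of 2, and was read on an Affymetrix mouse expression array. SAMR1 mice given water (SAMR1) are an inbred strain with resistance to accelerated senescence. SAMP8 mice given water (SAMP8 control) are the related senescence-prone inbred strain, which carries no transgene. SAMP8 mice given STEE, an ethanolic extract of sugarcane tops, at 20 mg/kg by mouth (STEE-fed SAMP8) make up the third group. The methods give that age before describing acclimatisation and dosing, so the animals were probably older when the tissue was taken. Dosing with extract or an equal volume of water ran for 30 days and went on through 8 days of behavioural tests. All mice were housed individually and, according to the study's methods, animals also received the thymidine analogue BrdU in their drinking water for part of that time. No group of SAMR1 fed STEE was analysed here, so the response to STEE could be compared within SAMP8 only.

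The values are the authors' group means of log2 signal, rounded to 2 decimals, so that a difference carries a rounding error of at most 0.01. Values per mouse were not used here. No spread, standard error or p-value is therefore given for any gene, and none of the differences can be set against the variation between mice of a group. A log2 difference of at least 0.25, which is 1.19-fold, was taken as the size to count. Each count over the 44 members is set beside the same count over all genes. The SAMP8 control means enter the comparison with SAMR1 and the comparison with STEE alike, so the differences in these are not independent of each other. In whole cortex, fewer cells of a kind and less RNA per cell cannot be told apart.

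As background, fusion is driven by SNARE proteins that zip together across the vesicle membrane (Vamp1 and Vamp2, the synaptobrevins) and the plasma membrane (Snap25 and Stx1a). Synaptotagmins such as Syt1 and Syt2 sense calcium, complexins hold the partly zipped complex ready, and Nsf with its adaptors pulls spent complexes apart. Rim, Munc13, Bassoon, Piccolo and the ELKS proteins build the active zone, and synapsins tether the reserve pool of vesicles. In cortex, most endings release glutamate, loaded by Slc17a7 (VGLUT1), and a smaller part release GABA, loaded by Slc32a1 (VGAT).

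The 6 members whose brightest probe set differed by at least 0.25 between SAMP8 controls and SAMR1 are shown first through the 120 bases before their start site, to give the sequence context of the genes on which that comparison turns. The sequences are from RefSeq, build GRCm38.p6, plus strand, 5′ to 3′, and capitals mark matches on either strand to a few short promoter motifs. These were the GC box, spelled GGGCGG, and the box named after its letters CCAAT. Also searched were TATAAA, the letters of the box at which the general transcription machinery often assembles, and TGACGTCA, which is the cAMP response element. Overlapping matches run together. For Syt2, Synpr and Syn2 the table holds more than 1 start site, and a single site is shown.
Syt2, chr1:134646492-134646611: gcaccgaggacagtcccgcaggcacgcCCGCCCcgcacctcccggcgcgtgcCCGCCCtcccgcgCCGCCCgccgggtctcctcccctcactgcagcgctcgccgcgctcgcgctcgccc
Vamp1, chr6:125215461-125215580: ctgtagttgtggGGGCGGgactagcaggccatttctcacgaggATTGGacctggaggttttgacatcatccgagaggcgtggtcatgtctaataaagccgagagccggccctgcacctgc
Cplx2, chr13:54302436-54302555: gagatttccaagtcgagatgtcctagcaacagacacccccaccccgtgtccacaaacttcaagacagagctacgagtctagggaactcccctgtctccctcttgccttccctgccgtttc
Synpr, chr14:13284660-13284779: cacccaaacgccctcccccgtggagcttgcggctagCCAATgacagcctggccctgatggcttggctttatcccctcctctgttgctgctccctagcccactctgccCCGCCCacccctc
Syn2, chr6:115134782-115134901: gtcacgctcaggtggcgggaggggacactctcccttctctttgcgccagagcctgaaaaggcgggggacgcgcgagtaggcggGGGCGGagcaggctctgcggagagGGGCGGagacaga
Rab3b, chr4:108878950-108879069: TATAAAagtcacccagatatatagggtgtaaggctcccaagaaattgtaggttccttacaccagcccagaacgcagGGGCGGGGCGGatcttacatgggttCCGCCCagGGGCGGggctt
Capitals show GC box matches close to the start site in Syt2, Vamp1, Synpr, Syn2 and Rab3b, and no match of any kind in the Cplx2 window. Of the 44 members, 37 had a promoter entry, with 48 start sites among them. Vamp2, Syt7, Rims2, Syn3, Snap25, Syt4 and Syt5 had none. Within 250 bases before the start, GGGCGG occurred in 29 of 48 member promoters (60.4%), against 32.7% of 32851 promoters in the table. CCAAT occurred in 11 (22.9%) against 33.8%, and TATAAA in 3 (6.25%) against 12.4%. TGACGTCA occurred in 2 member promoters (4.17%), those of Sh3gl2 and Syn1, against 1.55%. These are letter matches and say nothing about binding. The GC box letters were found both in genes with higher values in SAMP8 controls (Synpr, Syn2, Rab3b) and in genes with lower values (Syt2, Vamp1).

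The comparison of SAMP8 control with SAMR1 addresses the difference between the strains without the extract. Most presynaptic genes lay slightly higher in SAMP8 controls, by amounts well under the size counted here, and a few lay lower. Of 44 members, 33 lay above 0 (75.0%), against 47.1% of all genes and 49.6% of the 13001 genes whose level exceeded the array median. The shift was small, with a median difference of 0.055 against 0.00 over all genes. Past 0.25 lay 6 members, Syn2, Synpr and Rab3b higher and Vamp1, Cplx2 and Syt2 lower.

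These 6 of 44 are 13.6%, where 8.09% of all genes passed, 4.25% higher and 3.84% lower. Among genes above the median level, to which 43 of the 44 members belong, 12.0% passed, so the share of members past the threshold was near that of genes of comparable signal. The other 38 members lay between -0.22 and 0.24. Just short of the threshold were Syt6 at 0.24, Syt3 and Unc13c at -0.22 each, and Pclo and Amph at 0.21 each. Among the 6, Syt2 at -0.28 lay closest to the threshold.

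**Figure D1:**
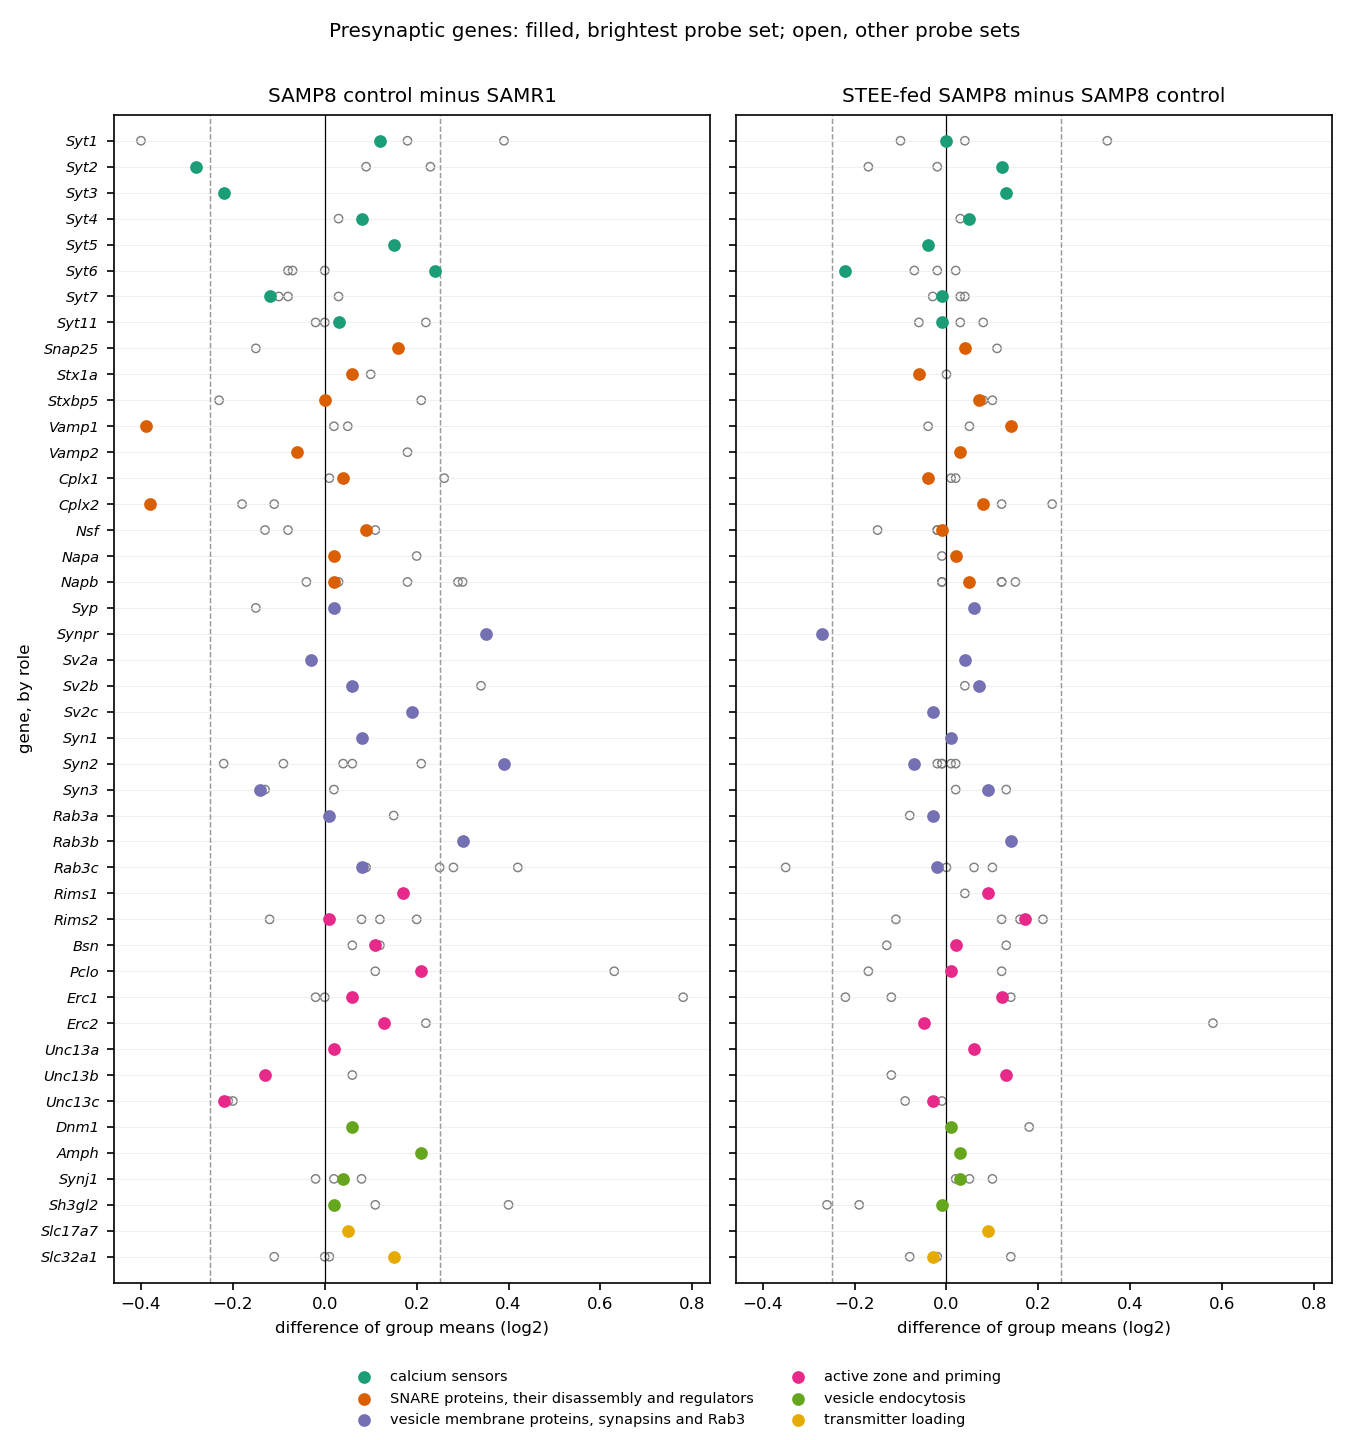
Log2 difference of group means for each of the 44 presynaptic genes, grouped by role, for SAMP8 control minus SAMR1 (left) and STEE-fed SAMP8 minus SAMP8 control (right). Filled points are the brightest probe set and open points the other probe sets of the same gene, and dashed lines stand at 0.25 to either side of 0. On the left 33 filled points lie to the right of 0 and 6 lie past a dashed line, whereas on the right Synpr at -0.27 is the only filled point past a line.

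Proteins of the vesicle membrane, the synapsins and the Rab3 GTPases held all 3 members past the threshold on the higher side, and 9 of these 11 genes lay above 0. Synapsin 2 (Syn2), which tethers vesicles to each other and to actin, had a mean of 9.33 in SAMR1, 9.72 in SAMP8 controls and 9.65 in STEE-fed SAMP8 at probe set 1460230_PM_at. It was thus 0.39 higher in SAMP8 controls, 1.31-fold, a size that 2.79% of all genes reached or exceeded in either direction. The other 5 probe sets of Syn2 differed by -0.22 to 0.21, so the difference stood at 1 of 6 probe sets.

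Synaptoporin (Synpr), a relative of synaptophysin, was read by a single probe set, 1423640_PM_at. Its means were 9.42 in SAMR1, 9.77 in SAMP8 controls and 9.50 in STEE-fed SAMP8. SAMP8 controls were the high group, 0.35 above SAMR1 (1.27-fold). Rab3b, a GTPase that guides vesicles towards release sites, also had a single probe set, 1422583_PM_at, with 5.67 in SAMR1, 5.97 in SAMP8 controls and 6.11 in STEE-fed SAMP8. Both SAMP8 groups were above SAMR1, the controls by 0.30.

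The general markers of vesicles in this role differed little. Synaptophysin (Syp), the most used marker of synaptic vesicles, was at 9.26, 9.28 and 9.34 in SAMR1, SAMP8 control and STEE-fed SAMP8. Synapsin 1 (Syn1) was at 9.02, 9.10 and 9.11 in the same order. The remaining 6 genes of the role, Sv2a, Sv2b, Sv2c, Syn3, Rab3a and Rab3c, lay between -0.14 (Syn3) and 0.19 (Sv2c) in SAMP8 controls against SAMR1. Sv2c was the only member whose brightest probe set lay below the median level of the array, at 3.49 to 3.68.

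SNARE proteins, their regulators and the disassembly factors included 2 of the 3 members past the threshold on the lower side. Synaptobrevin 1 (Vamp1), the vesicle SNARE that outweighs Vamp2 in fast-firing and brainstem or spinal circuits, averaged 8.20 in SAMR1, 7.81 in SAMP8 controls and 7.95 in STEE-fed SAMP8 at probe set 1421863_PM_at. It was 1.31-fold lower in SAMP8 controls, a log2 difference of -0.39. Its other 2 probe sets, at 2.99 to 4.15, differed by 0.05 and 0.02. Both of these lay near or below the array median of 4.15, so the difference was seen at the bright probe set alone.

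Complexin 2 (Cplx2), the complexin typical of excitatory forebrain neurons, had means of 10.56, 10.18 and 10.26 in SAMR1, SAMP8 control and STEE-fed SAMP8 at probe set 1421477_PM_at. SAMP8 controls were 1.30-fold lower, by -0.38 on the log2 scale. All 3 of its probe sets were lower in SAMP8 controls, the others by -0.11 and -0.18. Its close relative complexin 1 (Cplx1), typical of inhibitory neurons, was at 10.80, 10.84 and 10.80. Thus the brightest probe sets of the complexin genes differed between the strains by -0.38 and 0.04.

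The core neuronal SNAREs were close to level. Snap25 was at 11.38 in SAMR1, 11.54 in SAMP8 controls and 11.58 in STEE-fed SAMP8, a strain difference of 0.16. Its second probe set went the other way, by -0.15. Syntaxin 1A (Stx1a) was at 9.83, 9.89 and 9.83, and synaptobrevin 2 (Vamp2), the main vesicle SNARE of the forebrain, at 9.26, 9.20 and 9.23. The ATPase Nsf, which takes SNARE complexes apart, was at 10.26, 10.35 and 10.34. Its adaptors Napa and Napb and the syntaxin-binding Stxbp5 (tomosyn) lay between 0.00 and 0.02 in SAMP8 controls against SAMR1 at their brightest probe sets. Dimmer probe sets of these genes differed more: Napb was higher at 5 of 6, by 0.29 and 0.30 at 2 of them, Napa was higher by 0.20, and Stxbp5 differed by -0.23 and 0.21.

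Among the calcium sensors, 5 of 8 lay above 0 and 1 lay past the threshold. Synaptotagmin 2 (Syt2), the fast sensor of parvalbumin interneurons and hindbrain synapses, was at 5.28, 5.00 and 5.12 at probe set 1440323_PM_at, a strain difference of -0.28 (1.21-fold lower). Its other 2 probe sets were higher by 0.23 and 0.09, so the probe sets of Syt2 did not share a direction. Synaptotagmin 1 (Syt1), the fast sensor of most forebrain synapses, was at 11.07, 11.19 and 11.19 at its brightest probe set.

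Syt1 was the only member with a probe set past the threshold in each direction. Probe set 1421990_PM_at read 8.09 in SAMR1, 8.48 in SAMP8 controls and 8.52 in STEE-fed SAMP8, a strain difference of 0.39. Probe set 1438282_PM_at read 7.34, 6.94 and 7.29, a strain difference of -0.40. Over all genes with several probe sets, 74 of 10574 had such opposite readings in this comparison. The other synaptotagmins, Syt3 to Syt7 and Syt11, lay between -0.22 and 0.24.

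**Figure D2:**
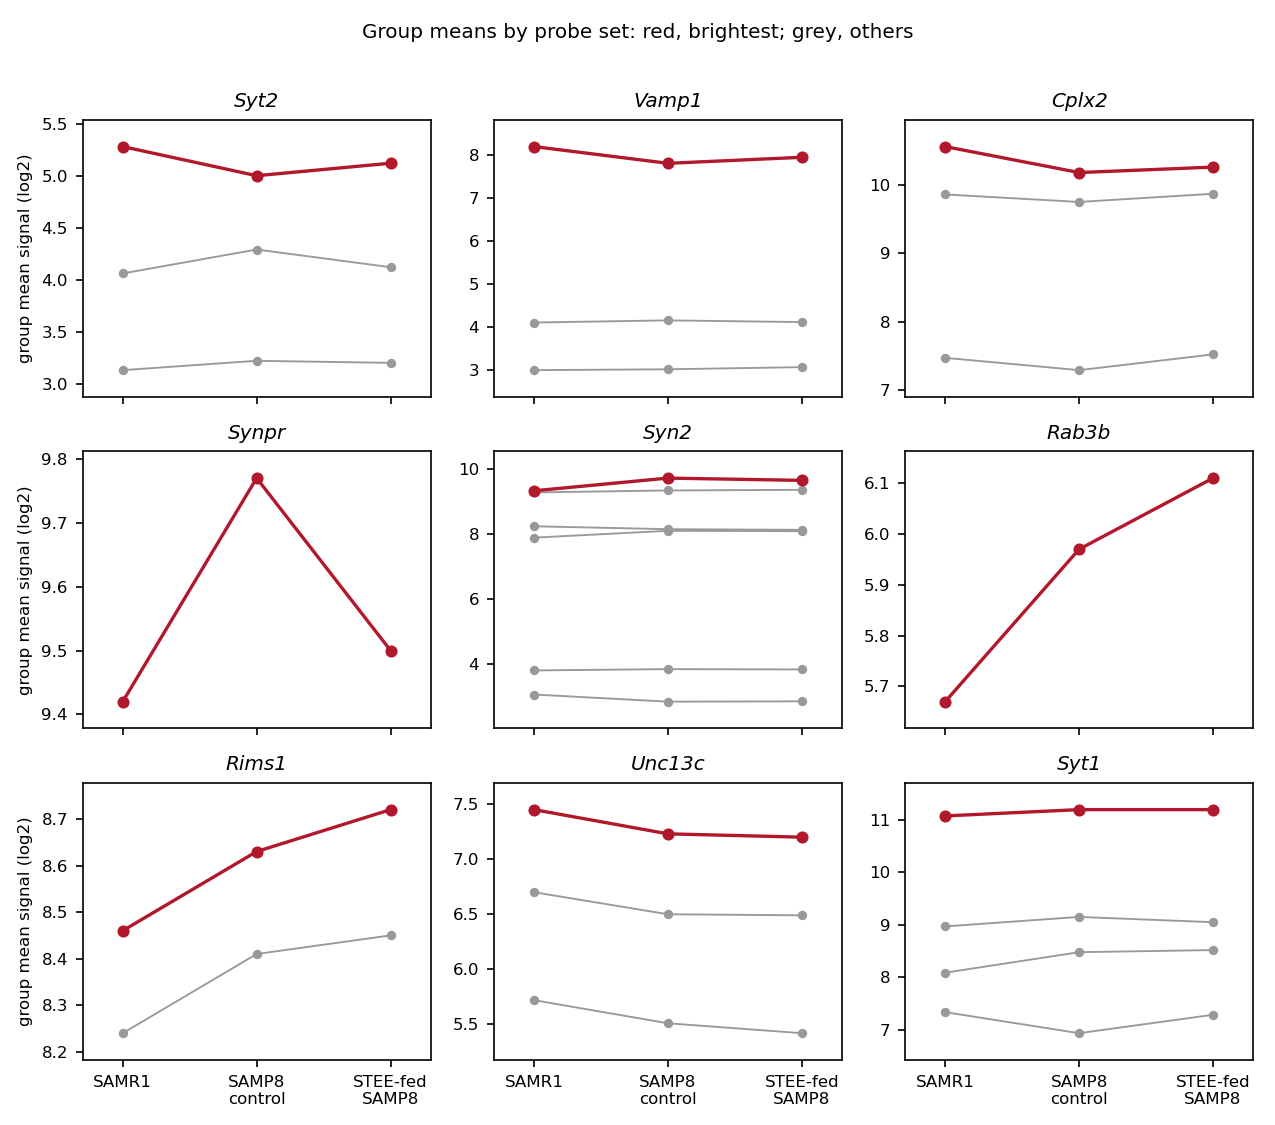
Authors' mean log2 signal (vertical axis, scale set for each gene) in SAMR1, SAMP8 control and STEE-fed SAMP8 for every probe set of the 8 members that differed by at least 0.25 at the brightest probe set in any comparison, and of Syt1. Red lines are the brightest probe set and grey lines the others, with no error bars because values per mouse were not used. Synpr is highest in SAMP8 controls at 9.77, Rab3b and Rims1 are highest in STEE-fed SAMP8 at 6.11 and 8.72, and the 3 lines of Unc13c are all lower in both SAMP8 groups.

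Active zone and priming genes held no member past the threshold between the strains, although 7 of 9 lay above 0. Rims1, the scaffold that ties vesicles to calcium channels, was at 8.46, 8.63 and 8.72 in SAMR1, SAMP8 control and STEE-fed SAMP8. Bassoon (Bsn), a giant scaffold, was at 8.49, 8.60 and 8.62, and Unc13a, the main priming factor of cortical synapses, at 6.67, 6.69 and 6.75. On the other side of 0 lay Unc13b, at 7.46, 7.33 and 7.46, and Unc13c, at 7.45, 7.23 and 7.20. All 3 probe sets of Unc13c were lower in SAMP8 controls, by -0.20 to -0.22.

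No gene of endocytosis or transmitter loading passed the threshold between the strains. All 4 endocytosis genes lay above 0, from 0.02 for Sh3gl2 (endophilin) to 0.21 for Amph (amphiphysin). Dynamin 1 (Dnm1), which severs vesicles from the membrane, was at 10.57, 10.63 and 10.64. Slc17a7 was at 7.05, 7.10 and 7.19, and Slc32a1 at 8.13, 8.28 and 8.25, strain differences of 0.05 and 0.15.

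Over all 118 probe sets of the members, 18 (15.3%) differed by at least 0.25 between the strains, against 8.52% of all 45077 probe sets. The 18 split into 14 on the higher side and 4 on the lower, whereas over the whole array 1946 were higher and 1894 lower. No share was computed over the array for probe sets of comparable signal, and only 22 of the 118 lay below its median level. Nor was one computed for probe sets that are not the brightest of their gene. Among the 74 such member probe sets, 11 were higher and 1 was lower. The largest of these were chosen for mention after their values were seen. An Erc1 (ELKS) probe set, 1441493_PM_at, read 5.08 in SAMR1, 5.86 in SAMP8 controls and 5.64 in STEE-fed SAMP8, while the other 3 of that gene differed by -0.02 to 0.06. A Piccolo (Pclo) probe set, 1452423_PM_at, read 6.10, 6.73 and 6.85, and the other 2 differed by 0.21 and 0.11 in the same direction.

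Rab3c had 5 probe sets, all higher in SAMP8 controls, by 0.08 at the brightest and by 0.25, 0.28 and 0.42 at 3 others. Sh3gl2 likewise had a dimmer probe set at 6.13, 6.53 and 6.27, a difference of 0.40. Of the 34 members with several probe sets, 15 had every probe set on the same side of 0 (44.1%), 13 of them higher and 2, Cplx2 and Unc13c, lower. The share was 41.8% over all genes with several probe sets. The median range between the probe sets of a gene was 0.245 in the members and 0.14 over all genes, so the members' probe sets differed more among themselves. Members also differ from the average gene in signal and in number of probe sets, with which this range was not compared.

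Marker genes of other cell types and brain regions differed between the same groups. All 9 striatal markers on the array were higher in SAMP8 controls, by 0.32 (Rgs9) to 1.03 (Gpr6), with the dopamine receptor Drd1a at 0.89, and their mean level was 7.42 in SAMR1, 8.07 in SAMP8 controls and 8.12 in STEE-fed SAMP8. All 7 thalamic markers were lower, 4 of them by at least 0.25 (Tcf7l2 -0.97, Prkcd -0.78, Plekhg1 -0.73 and Rora -0.28), with means of 5.78, 5.32 and 5.36. All 8 hippocampal markers were lower, with Dsp, Grp, Lct and Fibcd1 between -0.56 and -0.28, and means of 4.84, 4.57 and 4.58. All 6 oligodendrocyte markers were lower as well, with Mog at -0.63, Mobp at -0.39, Cnp at -0.34 and Mag at -0.31, and means of 9.79, 9.48 and 9.47. The part of these lists in the differences of the presynaptic genes was not tested.

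None of 7 pan-neuronal markers passed 0.25 between the strains, and their median difference was 0.04. Of 7 inhibitory neuron markers, 6 lay above 0, with Vip at 0.87 and Npy at 0.47. Of 7 markers of cortical excitatory neurons, 4 lay above 0 and the median difference was 0.01. Among them, Cux2 and Neurod6 were lower by -0.27 and -0.25, and Camk2a was at 10.97, 10.98 and 11.00. The label of the tissue as cortex is borne out by these levels, with Tbr1 at 8.12 to 8.57. The astrocyte and microglia lists (6 genes each) and the cerebellar list (6 genes) held no gene past 0.25. Of 7 choroid plexus markers, Ttr was lower by -1.96 and Kcne2 by -0.30, and of 5 endothelial markers Cldn5 was lower by -0.28. The cerebellar markers Pcp2, Gabra6 and Cbln3 stayed between 3.09 and 3.44, while Cbln1, Calb2 and Zic1 of the same list read 5.63 to 7.68.

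**Figure D3:**
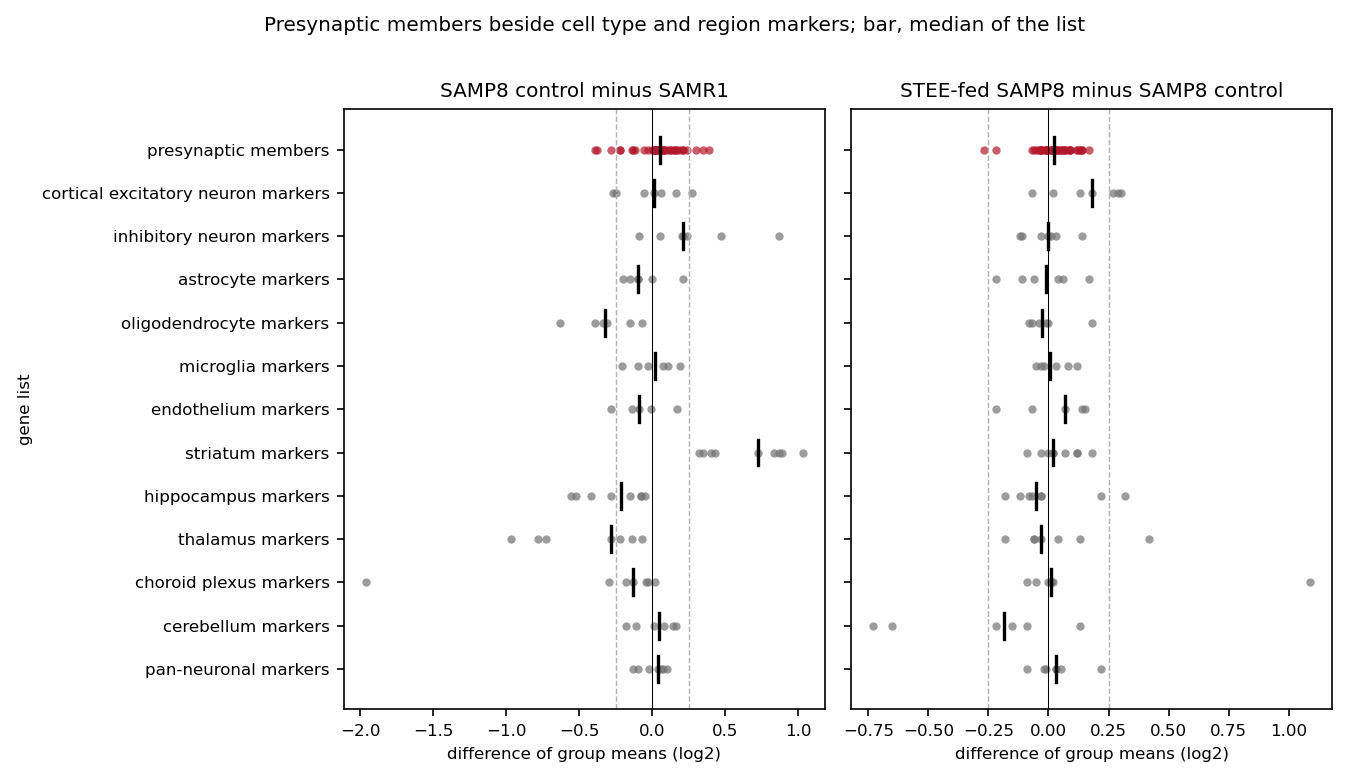
Log2 difference of group means for the 44 presynaptic genes (red) and for 12 lists of cell type and region markers (grey), with SAMP8 control minus SAMR1 on the left and STEE-fed SAMP8 minus SAMP8 control on the right, on different horizontal scales. Each point is a gene at its brightest probe set, black bars are list medians and dashed lines stand at 0.25 to either side of 0. The striatal median is 0.72 on the left and 0.02 on the right, while the presynaptic medians are 0.055 and 0.025.

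The comparison of STEE-fed SAMP8 with SAMP8 control addresses the response to the extract within SAMP8. The presynaptic genes were nearly level: 27 of 44 lay above 0 (61.4%), against 48.4% of all genes and 54.5% of genes above the median level. The median difference was 0.025, against 0.00 over all genes and 0.01 over genes above the median level. Only Synpr passed 0.25, and it was lower with STEE.

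That single member is 2.27% of 44, where 2.62% of all genes passed, 1.4% higher and 1.22% lower, and 3.44% of genes above the median level. Synpr averaged 9.77 in SAMP8 controls and 9.50 with STEE, lower by -0.27 or 1.21-fold, which left it 0.08 above SAMR1. A difference of this size or more in either direction was reached by 2.02% of all genes. The next largest were Syt6 at -0.22, with 4.90 in SAMP8 controls and 4.68 with STEE, and Rims2 at 0.17, with means of 8.94 and 9.11. The other 3 probe sets of Syt6, all under 3.1, differed by -0.07 to 0.02.

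By role, active zone and priming genes leaned highest with STEE at their brightest probe sets, with 7 of 9 above 0 and a median of 0.06. Dimmer probe sets of these genes went both ways, from -0.22 (Erc1) to 0.58 (Erc2). Rims2, a Rim scaffold of the active zone, was higher at its 3 brighter probe sets, by 0.17, 0.21 and 0.16, and differed by 0.12 and -0.11 at its 2 dim ones. SNARE genes lay between -0.06 (Stx1a) and 0.14 (Vamp1), with 7 of 10 above 0. Vamp1 and Cplx2, which were lower in SAMP8 controls than in SAMR1, stood 0.14 and 0.08 above the controls with STEE. Syn2 stood at -0.07 and Rab3b at 0.14.

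The synaptotagmins had a median of -0.005, with Syt1 at 0.00 and Syt2 at 0.12. The 4 endocytosis genes were within -0.01 to 0.03 at their brightest probe sets, the narrowest range of the 6 roles. At dimmer probe sets Sh3gl2 differed by -0.19 and -0.26, Dnm1 by 0.18 and Synj1 by 0.02 to 0.10. The general carriers Snap25 (0.04), Syp (0.06), Syn1 (0.01), Bsn (0.02), Unc13a (0.06), Nsf (-0.01), Cplx1 (-0.04), Slc17a7 (0.09) and Slc32a1 (-0.03) all lay within 0.1 of 0.

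Over all member probe sets, 5 of 118 passed 0.25 with STEE (4.24%), against 2.67% of all probe sets. The share among probe sets of comparable signal was not computed. Beside Synpr, those past 0.25 were dimmer probe sets of Syt1 and Erc2, which were higher, and of Rab3c and Sh3gl2, which were lower. The Erc2 probe set 1444681_PM_at read 4.49 in SAMR1, 4.71 in SAMP8 controls and 5.29 with STEE, a difference of 0.58 from the controls. At the much brighter probe set of Erc2 the means were 9.12, 9.25 and 9.20. The probe set of Syt1 that was 0.40 below SAMR1 in SAMP8 controls was higher by 0.35 with STEE. Rab3c read -0.35 at a probe set whose means of 3.64 to 4.06 lay below the array median.

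With STEE, the striatal, thalamic, hippocampal and oligodendrocyte lists were closer to level than between the strains. The cerebellar list was further from level, with a median of -0.185 against 0.045. None of the 9 striatal markers passed 0.25, and the median of the list was 0.02. Markers of cortical excitatory neurons were higher, 3 of 7 by at least 0.25, with Cux2 at 0.30, Tbr1 at 0.29 and Fezf2 at 0.27. Lower were Calb2 at -0.73 and Zic1 at -0.65 from the cerebellar list, both of which other brain regions also express. Single genes were higher from the choroid plexus list (Ttr, 8.24 in SAMP8 controls and 9.33 with STEE), the thalamic list (Plekhg1, 0.42) and the hippocampal list (Grp, 0.32). None of the inhibitory, astrocyte, oligodendrocyte, microglial, endothelial or pan-neuronal markers passed 0.25. Their part in the values of Synpr and the other presynaptic genes was not tested.

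STEE-fed SAMP8 was also set against SAMR1, to show where the presynaptic genes stood after the extract relative to the resistant strain. Here 32 of 44 members lay above 0 (72.7%), against 44.7% of all genes and 52.1% of genes above the median level, with a median of 0.075 against -0.01 over all genes and 0.01 over genes above the median level. Past 0.25 lay 6 members: Rab3b at 0.44, Syn2 at 0.32 and Rims1 at 0.26 were higher, and Cplx2 at -0.30, Vamp1 at -0.25 and Unc13c at -0.25 were lower. Syn2, Rab3b, Vamp1 and Cplx2 are also past the threshold in SAMP8 controls against SAMR1, which uses the same SAMR1 means.

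The 6 members are again 13.6% of 44. Of all genes 8.88% passed, 5.35% higher and 3.53% lower, and 13.3% of genes above the median level passed, so the members' share was again near that of genes of comparable signal. Amph at 0.24 and Pclo at 0.22 fell just short, and Vamp1 and Unc13c lay exactly at the threshold. Rims1 was higher at both probe sets, by 0.26 and 0.21. Unc13c was lower at all 3, by -0.21 to -0.30. The other probe sets of Cplx2 differed by 0.01 and 0.05, and those of Vamp1 by 0.01 and 0.07. Those of Syn2 lay between -0.21 and 0.20, and Rab3b had a single probe set. Thus the differences of Cplx2, Vamp1 and Syn2 past the threshold stood at the brightest probe set alone. Over the 118 member probe sets, 22 passed (18.6%), against 9.45% of all probe sets, 17 of them higher and 5 lower. The share among probe sets of comparable signal was not computed here either. The marker lists stood much as in the controls: in STEE-fed SAMP8 all 9 striatal markers were above SAMR1, with a median of 0.63, and all 7 thalamic and all 6 oligodendrocyte markers were below it, with medians of -0.31 and -0.38. Their part in these values was not tested.

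**Figure D4:**
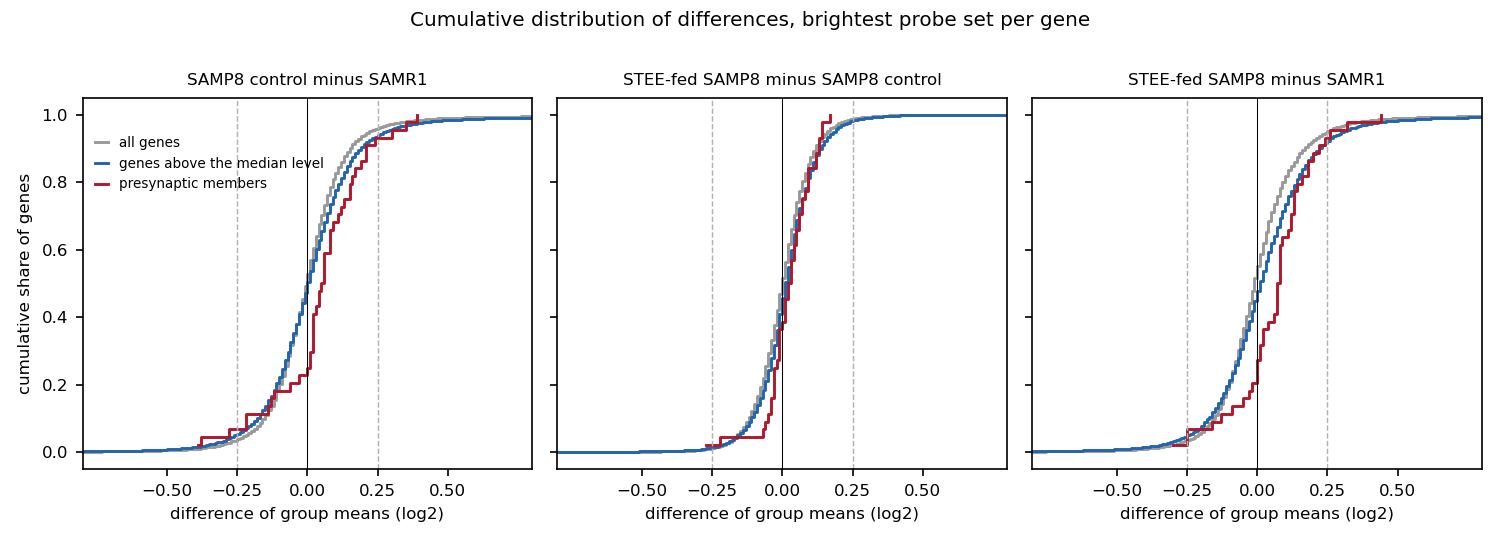
Cumulative share of genes (vertical axis) by log2 difference of group means (horizontal axis, cropped at 0.8 to either side) for the 44 presynaptic members, the 13001 genes above the median level and all 22527 genes, in SAMP8 control minus SAMR1 (left), STEE-fed SAMP8 minus SAMP8 control (middle) and STEE-fed SAMP8 minus SAMR1 (right). The red line of the members lies to the right of the others around 0 in the left and right panels, where 75.0% and 72.7% of members are above 0, and close to them in the middle panel, where 61.4% are.

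Further genes of the nerve ending, outside the 44, came from a list of 77 names, of which 74 were found. They leaned less to the higher side, with 42 of 74 above 0 in SAMP8 controls against SAMR1 (56.8%) and a median of 0.035. Of these 74, 9 passed 0.25 (12.2%), 3 higher and 6 lower, beside 8.09% of all genes and 12.0% of genes above the median level. Higher were the vesicle SNAREs Vamp3, at 6.16 in SAMR1, 7.06 in SAMP8 controls and 7.03 with STEE, and Vamp4, at 8.32, 8.59 and 8.60, and the scaffold kinase Cask, at 6.72, 7.37 and 7.34.

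Lower were vesicular transporters and a mixed group. Slc17a6 (VGLUT2), the glutamate transporter typical of thalamic and other subcortical neurons, read 7.42, 6.69 and 6.93, a strain difference of -0.73. The thalamic markers above were lower too, and their part in this difference was not tested. Slc18a2, which loads monoamines, read 3.63, 2.69 and 2.53, all below the array median. The liprin Ppfia4 (-0.31), the clathrin adaptor subunit Ap2a1 (-0.30), the syntaxin Stx3 (-0.29) and gamma-synuclein Sncg (-0.25) made up the rest.

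With STEE against SAMP8 control, none of the 74 passed 0.25, beside 2.62% of all genes, and they lay between -0.23 and 0.24 with a median of 0.01. Against SAMR1, 11 passed in STEE-fed SAMP8 (14.9%), beside 8.88% of all genes and 13.3% of genes above the median level. The 6 higher were Vamp3 (0.87), Cask (0.62), Cplx3 (0.30), Vamp4 (0.28), Syt16 (0.26) and Syt13 (0.25). The 5 lower were Slc18a2 (-1.10), Slc17a6 (-0.49), Ap2a1 (-0.47), Sncg (-0.35) and Stx3 (-0.33).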

How the data were processed

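Per the labels and the study's methods, total RNA from cerebral cortex was amplified, biotinylated and hybridised to 3′ expression arrays, 2 mice in each of 3 groups. According to the submitters' processing notes, the tools were RMA, Affymetrix Expression Console and Transcriptome Analysis Console, with no versions; the genome build of the annotation is not given in the sources used here. The authors deposited, in 2 tables, log2 group means (named bi-weight averages, 2 decimals) for 45077 probe sets; fold changes, ANOVA p-values and FDR p-values beside them were not used. RMA draws log2 values of dim probe sets towards a floor and so understates their differences. The SAMP8 control means of both tables were identical.

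Differences of group means were computed in Python 3.11.15 with numpy 2.4.6, pandas 2.3.3 and matplotlib 3.10.9, after the calculation was tested on simulated data. Symbol entries naming several genes were split, and 5694 probe sets carried no symbol. No test was run, since values per array were not used. Replicates are single mice. The members and lists were chosen with earlier results of these data known. Values are given in full for members past 0.25 in any comparison, members with probe sets past 0.25 in both directions, and 14 main carriers of the roles; list genes past 0.25 are named, apart from a marker that is not reported here. Alternatives changed the probe set rule, the filters, the centring and the threshold (0.15 and 0.5). The number of arrays limits the precision.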

Additional observations from a re-analysis of the deposited data

How the results depend on the processing

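The counts of presynaptic members past the threshold depended on which probe set stood for a gene and on the threshold. With the mean or the median over all probe sets, 3 members passed between SAMP8 control and SAMR1 in place of 6: Rab3b and Synpr in both cases, with Pclo for the mean and Rab3c for the median. With STEE against SAMP8 control 2 passed in place of 1, Synpr and Erc2, under either rule. In STEE-fed SAMP8 against SAMR1, 5 passed with the mean and 4 with the median in place of 6, and Rab3b and Unc13c were the members kept. At a threshold of 0.15 the counts were 16, 3 and 13 in the order of these comparisons, and at 0.5 they were 0, 0 and 0. Of all genes, shares of 0.1105, 0.0637 and 0.1116 were at or below -0.15. Shares of 0.8898, 0.9344 and 0.8739 were at or below 0.14, so that the remainder reached 0.15 or more. For the threshold of 0.5, shares of 0.0055, 0.0015 and 0.0058 were at or below -0.5, and 0.9897, 0.9991 and 0.9891 at or below 0.49. Signs turned for Syt2 between the strains (0.0133 with the mean, 0.09 with the median), for Vamp1 with the median (0.02 between the strains, 0.01 in STEE-fed SAMP8 against SAMR1) and for Cplx2 with the median in STEE-fed SAMP8 against SAMR1 (0.01); the median of these genes falls on their dimmer probe sets. Of the 48 alternative values of the counts and of the members' median differences, 38 stayed near the reported value under a loose rule. For the medians, near meant within the median absolute difference of all genes, 0.07, 0.06 and 0.08 in the order of these comparisons. That is wider than the medians themselves, so the rule could not show whether they kept their sign. Counts were allowed some change too. The second copy of the SAMP8 control means, identical to the first, was among the alternatives and could change nothing. Centring on the median of all probe sets left 5 in STEE-fed SAMP8 against SAMR1, without Vamp1 and Unc13c, which lay at the threshold, and with Amph. No paired analysis was possible because the deposited values used here are group means, and for the same reason leaving out each replicate was not run. Signal limits the reading of 22 of the 118 member probe sets, which lay below the median level of the array.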
